A study of Schizosaccharomyces pombe with 4 samples.

Results

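The glycolysis and fermentation enzyme genes hxk1, hxk2, pfk1, fba1, tpi1, tdh1, pgk1, eno101, pdc101 and adh1 of fission yeast (Schizosaccharomyces pombe) were examined on tiling arrays hybridized with chromatin immunoprecipitated through HA-tagged Cdk11. They are 10 of the 4376 coding genes that lie on matched array coordinates, out of 5145 coding genes annotated in the ASM294v3 assembly. The genes were taken by name, and every probe centred in a coding span or within 500 bp of it was assigned to its gene. The strain was wild-type with Cdk11-HA as its one listed modification, grown at 32 °C in YES, a rich glucose medium, to mid-log phase and fixed with 3% formaldehyde for 10 min. Chromatin of about 500 bp was pulled down once with a monoclonal antibody against the HA tag, amplified by ligation-mediated PCR, and hybridized together with input DNA to an Agilent 4x44k array. There were 2 independent immunoprecipitations with 2 arrays each, replicates 1 and 3 for the first and replicates 2 and 4 for the second. No untagged strain, mock precipitation or dye swap was analysed here, so signal that does not depend on the tag was not measured.

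Cdk11 is a cyclin-dependent kinase that works with cyclin L, and its part in transcription by RNA polymerase II through the Mediator complex is the subject of the series. Glycolysis splits glucose into pyruvate in a chain of cytosolic reactions, first spending ATP on sugar phosphates and then recovering it from triose phosphates. In fission yeast growing on glucose, most pyruvate goes on to ethanol through pyruvate decarboxylase and alcohol dehydrogenase, even in air. Transcripts of the lower glycolytic enzymes and of these fermentation enzymes are among the most abundant messages of such cells. The adh1 promoter is for that reason a standard strong promoter in fission yeast plasmids.

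Each value is log2(Cy3/Cy5), with the median probe of its array set to 0, so a negative value is a signal higher in Cy5. The labels place immunoprecipitated DNA in Cy3 and input in Cy5, but the ratios the authors deposited run the other way, as Cy5 over Cy3. The enriched direction is therefore not settled, and results are given by channel. With the channels exchanged every sign turns and every size stays. Duplicate arrays of 1 immunoprecipitation were averaged, giving n = 2, and a gene was called when its Benjamini-Hochberg adjusted p in limma, over all coding genes tested, was under 0.05. The p-values rest on the spread between these 2 immunoprecipitations. limma pooled that spread over all genes, wholly in some fits, the window fit among them, and in part in the others.

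Array values correlated more closely after loess than before it, but over unlike sets of spots. Spots marked by the scanning software were left out before loess and kept after it. The part of loess in the rise was therefore not measured. Probe values correlated with r = 0.21 and 0.266 within the immunoprecipitations and with r between 0.169 and 0.279 across them before loess, and with r = 0.404 and 0.377 within and between 0.315 and 0.424 across them after it. The range across immunoprecipitations covers the values within them in both cases. Median foreground intensities were 2889 to 4862 in Cy5 and 5097 to 6341 in Cy3, and 1% to 16.3% of the spots of an array were left out, most in replicate 1. On each array brighter probes had lower log2(Cy3/Cy5), with r between -0.638 and -0.47 over probes. Values are before correction of this trend by loess unless stated.

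Promoters of 6 of the genes are shown first, because the genes with the lowest array values share a stretch of letters at a like distance from the transcript start that the others lack there. The sequences are the 200 bases before the annotated transcript start, read from RefSeq's ASM294v3 assembly on the coding strand, 5′ to 3′, and capitals mark runs of TATAAA or TATATA that begin 30 to 60 bases before that start. They cover chrIII:1591092-1591291 for adh1 (plus strand), chrII:2807395-2807594 for tdh1 (plus strand), chrII:4159462-4159661 for pgk1 (minus strand), chrII:1688121-1688320 for fba1 (plus strand), chrII:2300392-2300591 for pfk1 (minus strand) and chrI:2665423-2665622 for hxk2 (plus strand).
adh1: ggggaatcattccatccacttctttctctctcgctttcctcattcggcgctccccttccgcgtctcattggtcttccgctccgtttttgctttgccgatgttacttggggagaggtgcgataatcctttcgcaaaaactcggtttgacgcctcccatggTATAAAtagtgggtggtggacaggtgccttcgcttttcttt
tdh1: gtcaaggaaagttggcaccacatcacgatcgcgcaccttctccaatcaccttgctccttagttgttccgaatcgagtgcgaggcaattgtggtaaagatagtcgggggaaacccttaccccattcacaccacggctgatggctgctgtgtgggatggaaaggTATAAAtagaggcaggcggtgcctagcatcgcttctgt
pgk1: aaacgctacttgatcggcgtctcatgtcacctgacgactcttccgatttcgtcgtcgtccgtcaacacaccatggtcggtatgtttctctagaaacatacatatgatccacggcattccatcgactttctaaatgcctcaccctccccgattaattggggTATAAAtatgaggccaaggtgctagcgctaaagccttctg
fba1: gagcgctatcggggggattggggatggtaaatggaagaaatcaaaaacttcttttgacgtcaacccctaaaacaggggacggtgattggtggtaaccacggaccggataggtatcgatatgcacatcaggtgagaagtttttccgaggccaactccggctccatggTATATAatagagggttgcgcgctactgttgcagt
pfk1: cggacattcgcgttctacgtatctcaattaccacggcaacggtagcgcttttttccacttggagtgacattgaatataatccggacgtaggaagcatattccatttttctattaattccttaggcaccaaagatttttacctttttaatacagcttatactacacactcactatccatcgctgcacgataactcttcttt
hxk2: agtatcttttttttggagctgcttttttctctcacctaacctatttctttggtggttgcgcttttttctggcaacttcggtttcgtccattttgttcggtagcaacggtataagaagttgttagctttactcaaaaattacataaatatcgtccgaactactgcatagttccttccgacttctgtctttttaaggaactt

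The TATAAA run begins 41 bases before the transcript start of adh1, 38 before that of tdh1 and 40 before that of pgk1. In fba1, TATATA begins 34 bases before the start, and the promoters of eno101, tpi1 and pdc101, not printed, hold TATATA from 40, 40 and 34 bases before theirs. Either hexamer, searched on both strands, thus lay in this interval for 7 of the 10 genes, against 14.6% of 5144 promoters of the genome. The promoters of pfk1, hxk2 and hxk1 held neither there. hxk1 has a TATAAA that begins 82 bases before its transcript start, outside the interval. Both hexamers and the interval were chosen after these sequences had been seen, the runs overlap where TATATA repeats, and a match is only a description of letters.

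Taken over the coding span with 500 bp on both sides, 9 of the 10 genes were called higher in Cy5, against 7.27% of 4156 coding genes (302 genes). None was called in Cy3, against 1.37% of all genes, and no member passed an unadjusted p of 0.05 in that direction in limma either. The split of called genes, 302 in Cy5 and 57 in Cy3, was 276 and 1 with arrays centred on the mode, 530 and 193 after loess with GC correction, and 540 and 229 in the deposited table. The median over the 10 genes was -1.52 (-1.76 in the first and -1.26 in the second immunoprecipitation), beside -0.01 over all genes. Before loess the genes split by their place in the pathway: hxk1, hxk2 and pfk1, which encode the kinases that phosphorylate sugars, lay between -0.87 and -0.31, and the 7 enzymes from aldolase to alcohol dehydrogenase between -2.03 and -1.30. After loess the kinases lay between -0.55 and 0.26 and the 7 enzymes between -1.01 and -0.60, so the sets came close to touching, at hxk2 and tpi1.

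**Figure D1:**
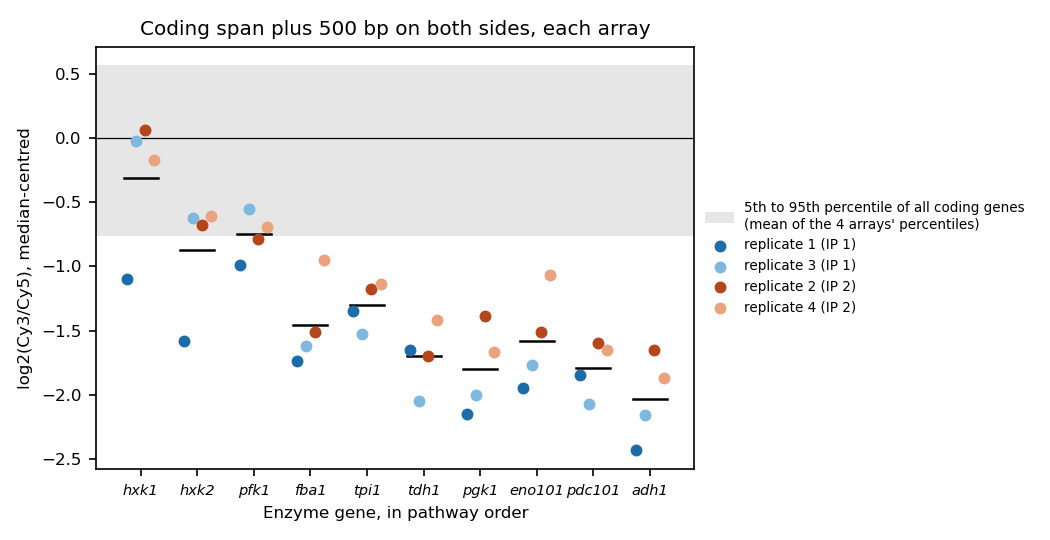
Log2(Cy3/Cy5) of each enzyme gene over its coding span plus 500 bp on both sides (vertical axis), in pathway order (horizontal axis), with 1 point per array coloured by immunoprecipitation (IP), a bar at the mean of the 2 immunoprecipitations, and a grey band from the 5th to the 95th percentile of all coding genes, each averaged over the arrays. From fba1 to adh1 every point lies under the band, between -2.43 and -0.95, while hxk1, hxk2 and pfk1 reach into it.

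Hexokinases open the pathway by phosphorylating glucose on its entry. For hxk1, replicates 1 to 4 gave -1.10, 0.06, -0.02 and -0.17, a mean of -0.31 ± 0.35 (SD, n = 2) that was not called (limma adjusted p = 0.319) and turned to 0.26 after loess. For hxk2 they gave -1.58, -0.68, -0.62 and -0.61, a mean of -0.87 ± 0.32 (SD, n = 2), 1.83-fold higher in Cy5 with a limma adjusted p of 8.99e-06. In both genes replicate 1 was far below the other 3 arrays, and without it hxk2 came to -0.63 (limma adjusted p = 0.0298) and hxk1 to -0.04. Phosphofructokinase, encoded by pfk1, commits the sugar phosphate to glycolysis. Its 4 arrays lay close together at -0.99, -0.79, -0.55 and -0.69, with a mean of -0.75 ± 0.03 (SD, n = 2), 1.69-fold higher in Cy5 (limma adjusted p = 0.000223). After loess the pfk1 value was -0.02 and the call was lost (limma adjusted p = 0.912).

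Aldolase (fba1) cleaves the hexose bisphosphate and triose phosphate isomerase (tpi1) interconverts the products. The 4 arrays gave -1.74, -1.51, -1.62 and -0.95 for fba1, which was 2.74-fold higher in Cy5 (mean -1.46 ± 0.32 SD, n = 2, limma adjusted p = 1.31e-15). They gave -1.35, -1.18, -1.53 and -1.14 for tpi1, which was 2.46-fold higher (mean -1.30 ± 0.20 SD, n = 2, limma adjusted p = 1.89e-12). Each array of either gene lay below the 5th percentile of all genes on that array, which was between -1.06 and -0.51.

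Glyceraldehyde-phosphate dehydrogenase (tdh1) makes the high-energy acyl phosphate from which phosphoglycerate kinase (pgk1) recovers ATP. For tdh1 the arrays read -1.65, -1.70, -2.05 and -1.42, a mean of -1.70 ± 0.20 (SD, n = 2), 3.26-fold higher in Cy5. For pgk1 they read -2.15, -1.39, -2.00 and -1.67, a mean of -1.80 ± 0.39 (SD, n = 2), 3.49-fold higher. Enolase, the product of eno101, forms phosphoenolpyruvate near the end of the chain. Its arrays read -1.95, -1.51, -1.77 and -1.07, a mean of -1.58 ± 0.40 (SD, n = 2), 2.98-fold higher. Both arrays of the first immunoprecipitation were below both of the second for pgk1 and eno101, whereas for tdh1 the immunoprecipitations overlapped. The limma adjusted p of these genes was 2.59e-21 for tdh1, 1.33e-23 for pgk1 and 3.2e-18 for eno101.

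Pyruvate decarboxylase (pdc101) and alcohol dehydrogenase (adh1) turn pyruvate into ethanol and regenerate the NAD that glycolysis needs. The 4 arrays gave -1.85, -1.60, -2.07 and -1.65 for pdc101, with a mean of -1.79 ± 0.24 (SD, n = 2), 3.46-fold higher in Cy5 (limma adjusted p = 2.31e-23). For adh1 they gave -2.43, -1.65, -2.16 and -1.87, with a mean of -2.03 ± 0.38 (SD, n = 2), 4.07-fold higher (limma adjusted p = 1.08e-29). Counted from the Cy5 end of the 4156 genes, adh1 ranked 3, pgk1 6, pdc101 8, tdh1 13, eno101 16, fba1 24, tpi1 33, hxk2 104, pfk1 143 and hxk1 601. Neighbours in that order differed by less than their SD for the first 6 steps, from adh1 down to tpi1. That SD does not use the pairing of genes on the same arrays. On all 4 arrays adh1 lay below pgk1, while other neighbours, such as pgk1 and pdc101, crossed between arrays. Differences within arrays were not tested among those 7 genes, so no order among them is claimed. The immunoprecipitation means of hxk1, hxk2 and pfk1 (-1.10 to -0.06) did not overlap those of the other 7 genes (-2.29 to -1.16).

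The very small p-values rest on a variance that limma estimated as common to all genes in this fit (SD 0.238), since 2 values a gene carry little of their own. The SD of hxk1, hxk2, fba1, pgk1, eno101 and adh1 was larger, at 0.32 to 0.40. That of pfk1, tpi1 and tdh1 was smaller, at 0.03 to 0.20. With an intensity trend in the variance, the limma adjusted p was 0.0014 for tdh1 and 3.39e-10 for adh1. The members other than hxk1 and pfk1 stayed called under all 18 alternative settings in which they could be tested, with adjusted p from 1.29e-34 to 0.0298 and values from -2.48 to -0.54. After loess those 8 genes lay between -1.01 and -0.55, 8 of 10 members were called against 9.46% of all genes, and their adjusted p in limma was between 0.000147 and 0.00489.

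Probe by probe, the place of the low values along the genes depended on loess. Of the 86 probes in the 10 windows, 57 (66.3%) were at least 1.5-fold higher in Cy5 in both immunoprecipitations, against 6.49% of 35169 probes of the array. No probe was that much higher in Cy3, against 4.13%. Within the coding spans the share was 38 of 47 probes (80.9%), downstream of the stop codons 14 of 19 (73.7%), and upstream of the start codons 5 of 20 (25.0%). After loess 34 of the 86 probes (39.5%) passed, against 6.5% of all probes, and 1, in hxk1, was that much higher in Cy3, against 4.37%. The coding spans then held 18 of 47 (38.3%), the downstream flanks still 14 of 19 (73.7%), and the upstream flanks 2 of 20 (10.0%). The members' share was thus highest downstream and no longer in the coding spans. The share over all probes was not split by place. By gene, limma called 14.9% of all genes downstream after loess and 2.65% over coding spans, beside 4.47% and 6.1% before it. Before loess, of the 10 probes more than 250 bp before a start codon, 1 passed, a probe of tdh1, and their median was 0.11. By gene, all 5 probes of tdh1 passed, as did 8 of 9 in pdc101 and adh1, 7 of 8 in pgk1, 7 of 10 in eno101, 6 of 8 in fba1, 4 of 6 in tpi1, 8 of 14 in pfk1, 4 of 8 in hxk2 and 0 of 9 in hxk1.

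**Figure D2:**
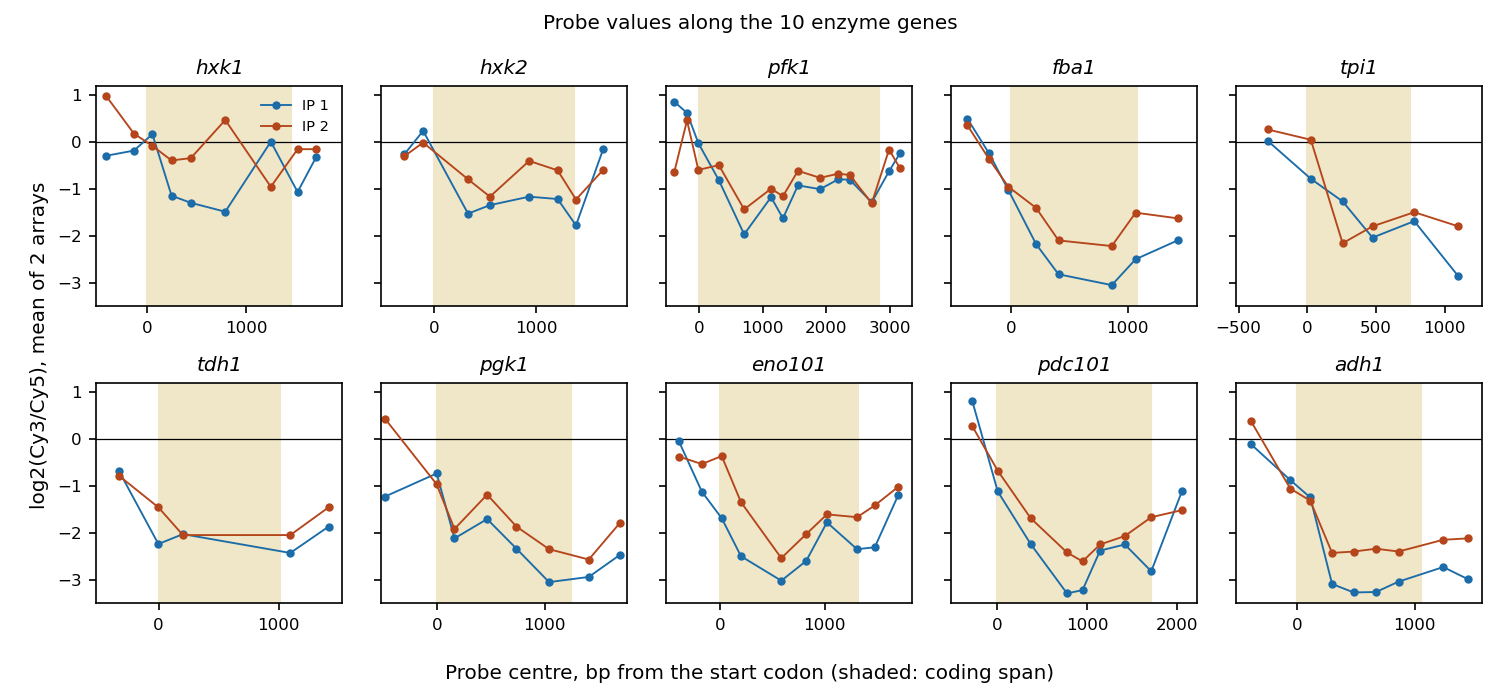
Log2(Cy3/Cy5) of each probe (vertical axis, mean of 2 arrays) against the distance of its centre from the start codon in bp (horizontal axis), with 1 panel per gene, 1 line per immunoprecipitation (IP) and the coding span shaded. In adh1 both lines drop from -0.12 and 0.37 at the probe farthest upstream to -3.27 and -2.40 inside the coding span, and in hxk1 they stay between -1.49 and 0.97.

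adh1 (chromosome III, 1591359 to 1592411, plus strand) gives the clearest course. Its probe centred at -390.5 bp from the start codon read -0.12 and 0.37 in the immunoprecipitations, and the next, at -57.5 bp, read -0.88 and -1.06. Inside the coding span the values were -1.25 and -1.32 at 113 bp, then -3.09 and -2.43 at 298.5 bp, and -3.27 and -2.40 at 482 bp. They stayed at -2.99 and -2.12 at 1455.5 bp, beyond the stop codon. After loess they were 0.41 and 0.43 at the probe farthest upstream, -1.62 and -1.25 at 482 bp and -1.70 and -1.56 at 1455.5 bp. The pdc101 gene (chromosome I, 101836 to 103544, minus strand) ran from 0.81 and 0.27 upstream to -3.22 and -2.61 at 950 bp, at a probe that spans 102568 to 102620. In tpi1, tdh1, pgk1 and hxk2 the lowest probe lay past the stop codon or on it, and in the other 6 genes inside the coding span. After loess it lay past the stop codon in all members except hxk1 and pfk1.

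Averaged in 9 bins, the 10 genes stood at 0.00 between 500 and 250 bp upstream, at -0.62 in the 250 bp before the start codon and at -1.11 in the first of 5 equal parts of the coding span. The middle part was lowest at -2.03 (-2.44 and -1.62 by immunoprecipitation), and 250 to 500 bp past the stop codon the mean was still -1.40. These bins hold 6 to 10 of the genes each, since probes are sparse. The 138 ribosomal protein genes, another set of very active genes, ran from -0.06 upstream to -1.18 in the middle part of the coding span and -0.69 at the end, with 22 to 113 of them measured in a bin. Other coding genes stayed between -0.10 and 0.10. After loess the mean over the 10 genes was -0.55 in the middle part of the coding span and -1.21 in the last bin, so that the lowest bin moved from the coding span to the far downstream flank. The ribosomal protein genes were then at -0.45 in the middle part, lowest at -0.72 in the first 250 bp past the stop codon and at -0.51 in the last bin. Other coding genes were also lowest downstream after loess, at -0.23 and -0.22 in the 2 downstream bins beside 0.07 in the middle part.

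**Figure D3:**
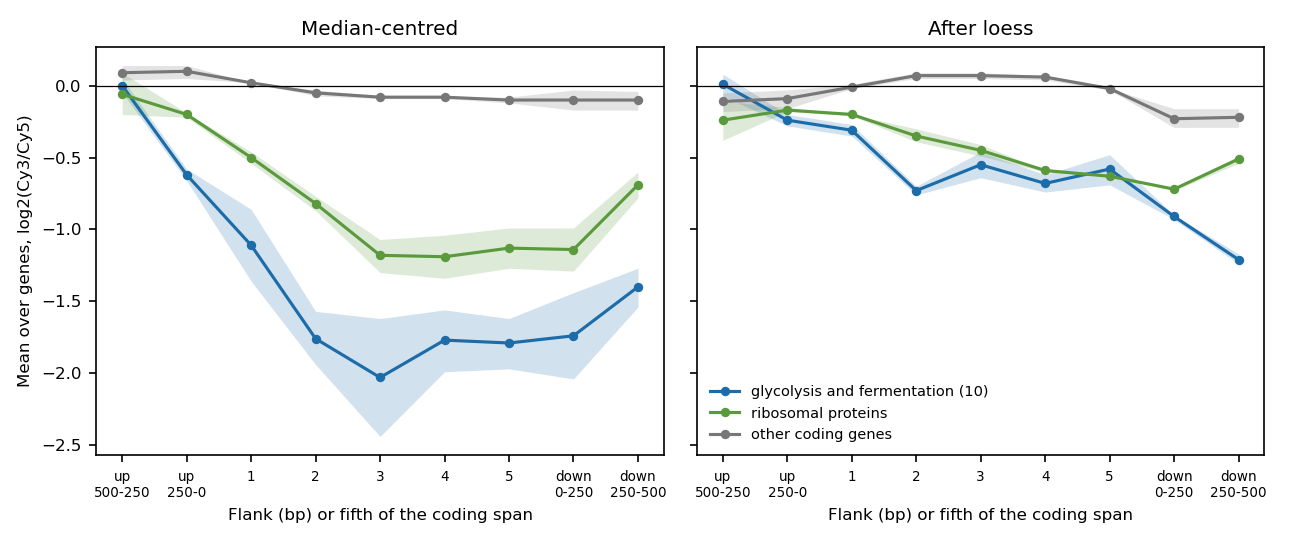
Mean log2(Cy3/Cy5) (vertical axis) in 2 upstream flank bins, 5 equal parts of the coding span and 2 downstream flank bins (horizontal axis), before and after loess, with bands between the 2 immunoprecipitations. The 10 enzyme genes fall from 0.00 far upstream to -2.03 in the middle part of the coding span before loess, and to -0.55 there and -1.21 far downstream after it.

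Tested gene by gene, the coding span alone was called higher in Cy5 in 8 of the 9 members with enough probes, against 6.1% of 3657 genes. adh1 had the second lowest coding-span value of all genes (rank 2), with -2.71, -2.09, -2.86 and -2.27 on replicates 1 to 4, a mean of -2.48 ± 0.43 (SD, n = 2) and a 5.58-fold higher Cy5 signal (limma adjusted p = 3.35e-10). The means of fba1 (-2.22 ± 0.58), pdc101 (-2.18 ± 0.33), pgk1 (-2.07 ± 0.33) and eno101 (-1.96 ± 0.51) followed (SD, n = 2), then those of tpi1 (-1.34 ± 0.04), pfk1 (-1.04 ± 0.18), hxk2 (-1.03 ± 0.40) and hxk1 (-0.45 ± 0.25, limma adjusted p = 0.212, not called). The array holds 1 probe in the coding span of tdh1, so tdh1 was not tested there, and that probe read -2.03 and -2.05 in the immunoprecipitations. After loess 5 members were called (fba1, pgk1, eno101, pdc101 and adh1, limma adjusted p between 0.00481 and 0.0256), against 2.65% of all genes. Over all genes the split was 223 in Cy5 and 38 in Cy3, and it was 97 and 80 after loess, 62 and 46 in the deposited table and 265 and 5 with centring on the mode. Without replicate 3 neither hxk2 (limma adjusted p = 0.067) nor pfk1 (0.0771) was called over the coding span, and without replicate 4 hxk2 was not (0.0621).

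The downstream flanks, 500 bp past the stop codon, lie in part within the transcripts. Of the 10 members, 7 were called higher in Cy5 there, against 4.47% of 3628 genes. The lowest was adh1, with -3.31, -2.24, -2.41 and -2.03 on replicates 1 to 4 and a mean of -2.50 ± 0.51 (SD, n = 2, limma adjusted p = 0.000183), followed by pgk1 at -2.44 ± 0.37. Those of tpi1 (-1.96), tdh1 (-1.95), fba1 (-1.87), pdc101 (-1.73) and eno101 (-1.49) were called too, the last not without replicate 3 (limma adjusted p = 0.0947). Not called were hxk2 (-0.94), hxk1 (-0.43) and pfk1 (-0.40), the 3 sugar kinases. hxk2 was called with centring on the mode (limma adjusted p = 0.0338), with all spots kept (0.028), with flanks of 250 bp (0.00327) and with the immunoprecipitation as a random block (0.0273). After loess the same 7 genes were called, but so were 14.9% of all genes.

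In the 500 bp upstream, none of the 9 members tested was called by limma, against 0.44% of 3409 genes, and tdh1 alone passed an unadjusted p of 0.05. tdh1 read -1.38, -1.47, -1.55 and -0.78, a mean of -1.29 ± 0.24 (SD, n = 2, limma adjusted p = 0.0711). With flanks of 250 bp it was called, at -1.85 (adjusted p = 0.000396), as it was without replicate 1 (0.0354) or replicate 4 (0.0316), and the value with 250 bp rests on 1 probe whose centre lies 1.5 bp before the start codon. The other 8 lay between -0.63 (pgk1) and 0.54 (pdc101). hxk2 could not be tested, because neither of its upstream probes was kept on every array. After loess hxk1 was called higher in Cy3 upstream, at 0.90 (limma adjusted p = 0.00856), against 3.31% of all genes.

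The difference between coding span and upstream flank was tested within arrays. It was called, with the coding span higher in Cy5, in 6 of the 8 members that could be tested, against 1.38% of 2894 genes. pdc101 had the largest such difference of all genes, at -3.12, -2.02, -3.33 and -2.43 on replicates 1 to 4, a mean of -2.72 ± 0.71 (SD, n = 2, limma adjusted p = 0.000379), with 1 upstream probe. adh1 (-2.06 ± 0.32, adjusted p = 0.00865) and fba1 (-1.93 ± 0.63, adjusted p = 0.0101) ranked 3 and 6, and tpi1 (-1.48), pgk1 (-1.44) and eno101 (-1.43) ranked 31, 37 and 40. pfk1 (-0.99) and hxk1 (-0.80) were not called. After loess the differences of pdc101 (-0.92), adh1 (-0.94) and fba1 (-0.93) remained called, against 2.56% of all genes. Without replicate 3 only that of pdc101 was called, without replicate 2 likewise, and with only probes well above background in both channels on all 4 arrays limma called no gene of the genome, though 288 had an unadjusted p under 0.05, and pdc101 stood at an adjusted p of 0.093.

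Differences along the transcribed part were not called before loess. Coding span minus downstream flank was called in 0 of 9 members by limma (0.229% of 3061 genes higher in Cy5 and 1.54% in Cy3), and none passed an unadjusted p of 0.05. The upstream minus the downstream portion of the coding span, cut at its midpoint, was called in 0 of 9 (0.144% of 3481 genes in Cy5 and 0.316% in Cy3), and 1 member passed an unadjusted p of 0.05 in limma. That was tpi1, whose upstream portion lay 0.88 ± 0.19 (SD, n = 2) above its downstream portion. A p that misses the threshold does not show that the ends are alike, and the SD that limma estimated over all genes was 0.542 for the first and 0.507 for the second of these tests. After loess 2 members, tpi1 (0.98) and eno101 (0.90), were called with the downstream flank lower than the coding span, against 6.57% of all genes, where eno101 had been -0.47 before. After loess the midpoint test called hxk1, with its upstream portion higher in Cy5 (-0.84, limma adjusted p = 0.0475), against 1.81% of all genes.

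Genes of isoenzymes for the same reaction were compared over the coding span in 5 pairs. The hexokinase pair sets hxk1 against hxk2, both members, and each other pair sets a member against a gene outside the set. All 5 differences passed in limma, with p adjusted over the 5 pairs. Members and tests were chosen with earlier results of these data known, so these p-values are descriptive and not independent evidence of a difference. eno101 minus eno102 was -2.29 (95% interval -2.89 to -1.69, adjusted p = 4.96e-08), where eno102 itself was at 0.57 and 0.08 in the immunoprecipitations. pdc101 minus pdc201 was -2.02 (-2.58 to -1.45), pdc101 minus pdc202 -1.97 (-2.53 to -1.41) and adh1 minus adh4 -2.01 (-2.57 to -1.45), each with an adjusted p of 5.85e-08 in limma. adh4 encodes an alcohol dehydrogenase of mitochondria. The hexokinase genes differed least, with hxk1 above hxk2 by 0.59 (0.026 to 1.15, limma adjusted p = 0.0407), and without replicate 3 that interval covered 0 (-0.43 to 1.22), as it did without replicate 4 (-0.15 to 1.18, limma adjusted p = 0.114). After loess the 5 differences kept their signs, at 0.73 for the hexokinases and between -1.44 and -0.66 for the others. tdh1 could not be set against gpd3, which encodes the other glyceraldehyde-phosphate dehydrogenase, for want of coding-span probes in tdh1, and pdc102 lies on the part of chromosome I that was not matched.

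The wider pathway was read from a list of other sugar and pyruvate metabolism genes and their regulators. Of these 53 genes, 42 had a window value, 8 were called higher in Cy5 and none in Cy3 (limma), against 7.27% and 1.37% of all genes, and their median was -0.12. Among the other glycolysis genes, pgi1, which encodes glucose-phosphate isomerase, lay at -0.61 ± 0.13 (SD, n = 2) and gpd3 at -0.53 ± 0.11, and both were called. gpd1, which makes glycerol phosphate from a glycolytic intermediate, was lowest of the list at -0.99 ± 0.25 (SD, n = 2, limma adjusted p = 2.15e-07). gnd1 of the pentose phosphate pathway (-0.52), the citrate cycle genes aco1 (-0.60) and sdh2 (-0.58), mae2, which encodes malic enzyme (-0.71), and scr1, the glucose repressor (-0.55), were the remaining 5. The 34 genes that were not called lay between -0.45 and 0.30, among them the isoenzyme genes eno102 (0.30), pdc201 and pdc202 (both -0.07) and adh4 (-0.27). After loess 6 of the 42 were called in Cy5 and 2 in Cy3, against 9.46% and 2.57% of all genes. Of the 8 genes, gpd1, gnd1, sdh2 and scr1 stayed called in Cy5. The calls of pgi1 (0.00), gpd3 (-0.18), aco1 (-0.17) and mae2 (-0.35) were lost, and tps1 (-0.41) and cit1 (-0.44) were newly called. Upstream of the pathway, 3 of the 8 ght hexose transporter genes were called, ght8 at -1.77 ± 0.53 (SD, n = 2), ght5 at -0.90 and ght2 at -0.58, against 7.27% of all genes. After loess ght8 stood at -0.64 and ght5 at -0.53, both still called, and ght2 at -0.24, not called (limma adjusted p = 0.154).

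**Figure D4:**
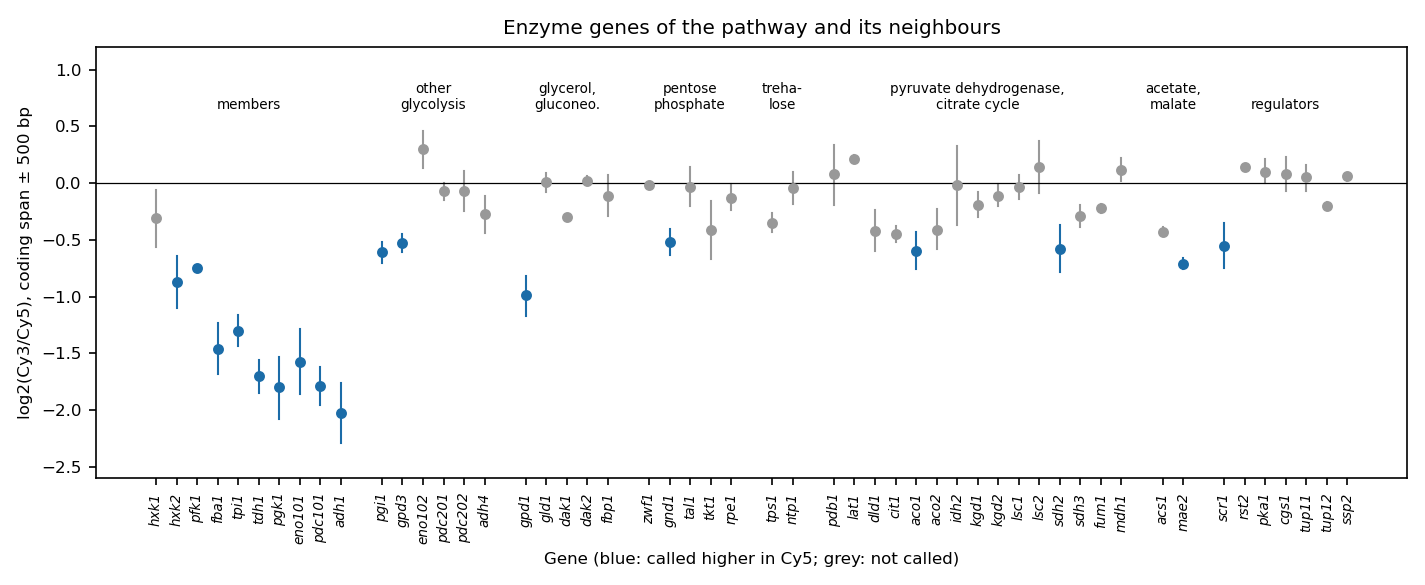
Log2(Cy3/Cy5) over the coding span plus 500 bp on both sides (vertical axis) for the 10 members and 42 other genes of sugar and pyruvate metabolism (horizontal axis), with points at the mean and lines between the 2 immunoprecipitations. The 8 called genes outside the members reach -0.99 at the lowest, and the members reach -2.03.

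The coding sequences of the members have features in common that the choice of genes did not use. Their codon adaptation index, which measures how closely codon use follows that of the ribosomal protein genes, was 0.79 to 0.82 in the 7 genes from fba1 to adh1 and 0.60 to 0.76 in the sugar kinases, beside a median of 0.39 over 3657 genes. Their GC content was 48.53% to 54.20% and 44.12% to 48.39% in these sets, beside a median of 39.72%. tdh1 and adh1 were at the top, at 54.20% and 54.13%. Over the 3657 genes the coding-span value fell with the codon adaptation index (Pearson r = -0.55, Spearman rho = -0.32) and with GC content (r = -0.44, rho = -0.34), as a description over genes that share the 4 arrays. After loess these were r = -0.29 and rho = -0.14 for the index and r = -0.12 and rho = -0.02 for GC content.

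Brightness also went with the value. Mean brightness of the coding-span probes, on a log2 scale with the array medians at 0, was 1.16 to 1.95 in the 7 genes and 0.68 to 1.14 in the sugar kinases, above at least 92.8% of genes. Split by channel, the Cy5 signal of the 7 genes lay 1.87 to 3.01 above the array median and their Cy3 signal 0.21 to 0.88 above it. Both channels thus lay above the array median, Cy5 further than Cy3. Ranked among coding genes, Cy5 stood at percentiles 98.5 (tpi1) to 100 (tdh1). Cy3 stood at percentiles 67.2 (adh1) to 99.4 (tdh1), with fba1 at 74.5 and pgk1 at 79.6, and tdh1 rests on 1 probe. Across the 3657 genes the coding-span value correlated with brightness at r = -0.64 (rho = -0.54) before loess and at r = 0.12 after it, where the Cy5 signal enters both measures. In the same loess-corrected values adh1 was at -1.16, fba1 at -0.96, pdc101 at -0.86, pgk1 at -0.85 and eno101 at -0.65. Not called there were hxk2 at -0.50, tpi1 at -0.33, pfk1 at -0.05 and hxk1 at 0.23, so tpi1 lay among the sugar kinases. With a further correction for probe GC content the median of the 10 window values was -0.84, beside -0.73 after loess alone. The part of brightness and GC content in the member values was not tested beyond these corrections. None of the 188 coding-span spots of the members was saturated, and 1 was left out.

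**Figure D5:**
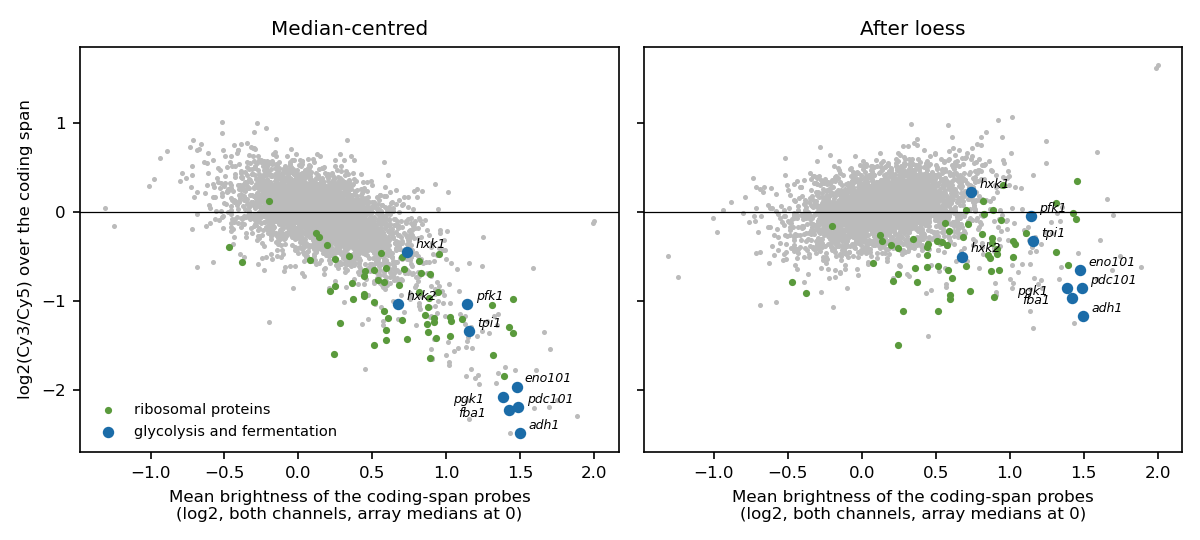
Log2(Cy3/Cy5) over the coding span (vertical axis) against the mean brightness of its probes on a log2 scale (horizontal axis) for 3657 genes, before and after loess, with the 9 members that had a coding-span value in blue, ribosomal protein genes in green and all other genes in grey. Before loess adh1 is at -2.48 and pfk1 at -1.04, and after loess at -1.16 and -0.05.

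The nearest coding genes on either side were read over their own coding spans. Over the coding span, 2 of the 9 measured neighbours upstream of the members and 0 of the 8 measured downstream were called higher in Cy5, against 6.1% of all genes. Those upstream were sam1, which encodes S-adenosylmethionine synthetase and lies 3111 bp from pgk1, at -1.53, and pgm1, a phosphoglucomutase gene 3455 bp from tdh1, at -0.65. The downstream neighbours ranged from -0.52 to 0.19 at gaps of 376 to 1906 bp, and none passed an adjusted p of 0.05 in limma.

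The genes outside the set whose 4 array values were nearest to the members' median (-1.69, -1.45, -1.70 and -1.11 on replicates 1 to 4) were found by root mean square difference over the 4 arrays. They were sks2, which encodes a ribosome-associated chaperone (difference 0.08, mean -1.53), rps1402, a ribosomal protein gene (0.10, mean -1.50), tef3, the gene of a translation elongation factor (0.12, mean -1.56), knh4 (0.13, mean -1.40) and SPBPB7E8.01 (0.13, mean -1.42).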

How the data were processed

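The 4 Agilent 4x44k arrays belong to 1 group, 2 for each of 2 immunoprecipitations, and 4 arrays limit the precision. Spot intensities (mean foreground, median local background) were deposited as scanned, per the file headers, as were the percent of pixels above background and saturated and the pixel fit R2, a fraction. The log2 value table was deposited as the authors made it: its columns have medians from -0.014 to 0.008 and correlate with loess values at 0.989 to 0.998 once its sign is turned, and its exact processing and the array's genome build are not given in the sources used here. Array and ASM294v3 coordinates were compared in windows of 100 kb, of which 107 of 126 matched, including all 10 that hold members. Chromosome I beyond 3.7 Mb was not used, which leaves out gpm1, pyk1 and pdc102 among others.

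Log2(Cy3/Cy5) of the foreground means was centred on each array's median, with no loess in the main setting, after leaving out spots marked by the scanning software (unless saturated with R2 over 0.3). Probes were averaged per gene, with at least 3 in a window, 2 in a coding span and 1 in a flank, and duplicate arrays per immunoprecipitation. Tables were made in Python 3.11.15 with pandas 2.3.3 and numpy 2.4.6. limma 3.58.1 (R 4.3.3) tested each mean against 0 over all genes, and was tested on simulated data. The window fit had no gene-specific variance. Alternatives were loess, loess with GC correction, normexp (offset 50), the deposited table, centring on the mode, probes well above background (at least 50% of pixels in both channels), all spots, other windows and flanks, the median over probes, at least 5 probes, each array left out, the immunoprecipitation as a random block, and an intensity trend.

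Named were all members, called genes of the pathway list and isoenzymes of members, called neighbours, and the 5 genes nearest to the members' median. Members, lists and tests were chosen with earlier results of these data known.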

Additional observations from a re-analysis of the deposited data

Results flagged for a closer look

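Of 38 sets of 4 array values (window, coding span and both flanks of each member), 3 held 1 array apart from the other 3, and chance flags about 1 such set in 20. In the window of hxk2, replicate 1 read -1.58 while the others lay between -0.68 and -0.61. In the downstream flank of tdh1, replicate 3 read -2.48, with the others between -1.81 and -1.74. In the downstream flank of pgk1, replicate 1 read -3.29, with the others between -2.28 and -2.08. In all 3 the array apart belongs to the first immunoprecipitation and is lower, that is, higher in Cy5. hxk2 was still called without replicate 1.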

How the results depend on the processing

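No paired analysis was possible because all 4 arrays belong to 1 group. Counts below are of genes called by limma, Cy5 before Cy3, in the order window (302 and 57), coding span (223 and 38), upstream flank (15 in Cy5), downstream flank (162 in Cy5), coding span minus upstream (40 and 9), coding span minus downstream (7 and 47) and upstream minus downstream portion of the coding span (portions, 5 and 11). Values within 1.5 times of these are mostly left out.

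After loess they were 393 and 107, 97 and 80, 262, 539, 74 and 195, 17 and 201, and 63 and 110. With GC correction as well they were 530 and 193, 85 in Cy5 for the coding span, 210, 428, 101 and 164, 54 and 285, and 0 and 0 (343 and 397 at unadjusted p). The deposited table gave 540 and 229, 62 in Cy5 for the coding span, 0 (571 at unadjusted p), 571, 90 and 235, 59 and 453, and 42 and 85. With normexp the window gave 175 and 17, the coding span 59 in Cy3, the upstream flank 0 (141 at unadjusted p), the downstream flank 81, the upstream difference 14 in Cy3, and the portions 11 and 37. Loess shifted the median of all genes from 0.12 to -0.06 upstream, from -0.09 to -0.21 downstream, from -0.17 to 0.10 for coding span minus upstream and from 0.02 to 0.24 for coding span minus downstream.

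Centring on the mode left 1 window and 5 coding-span calls in Cy3, 0 upstream (203 at unadjusted p) and 260 downstream. With all spots kept the coding span gave 145 and 2, the upstream flank 0 (162 at unadjusted p), the downstream flank 269, the upstream difference 130 and 27, the downstream difference 17 in Cy5 and the portions 9 and 25. With only well-measured probes the upstream difference gave 0 and 0 (288 and 79 at unadjusted p). The coding span as window gave 37 in Cy3. Without probes inside neighbouring genes, 31 upstream flanks and 26 upstream differences were called, and with 250 bp flanks 24 upstream flanks and 0 and 0 downstream differences (67 and 120 at unadjusted p). The random block gave 44 upstream, 248 downstream, 113 and 29 upstream differences and 0 and 2 portions (176 at unadjusted p in Cy5), and the intensity trend 31 downstream differences and 2 portions in Cy5.

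For the members, 8 or 9 windows were called under every alternative in which all 10 had a value. Coding-span calls were 5 of 9 after loess and with the deposited table. Upstream differences were 3 after loess, loess with GC correction, normexp and the deposited table, 2 of 5 with 250 bp flanks and 0 with well-measured probes. Upstream, 1 (tdh1) was called in Cy5 with 250 bp flanks, without neighbouring genes' probes and with the block, and 1 (hxk1) in Cy3 after loess with and without GC correction. Downstream, 8 were called with centring on the mode, all spots kept and the random block, where hxk2 joined the 7, and 6 of the 8 tested with 250 bp flanks, hxk2 among them. Coding span minus downstream was called in Cy3 in 2 members after loess and with the deposited table and in 1 with GC correction. The median window value was -0.73 after loess, -0.84 with GC correction, -0.70 in the deposited table and -1.96 over coding spans alone. hxk1 minus hxk2 was 0.56 with all spots kept (t-test adjusted p = 0.0522). Signs turned with a call for eno101, whose coding span minus downstream was 0.90 after loess and 0.95 in the deposited table. They did so too for hxk1, whose upstream minus downstream portion of the coding span was -0.84 and -0.96, called in both. Signs of uncalled values turned more widely. Coding span minus downstream was negative in 6 of 9 members before loess and in 0 after it, and the window of hxk1 went from -0.31 to 0.26. The causes were not tested.

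Leaving out 1 array gave 119 to 206 and 2 to 26 window calls, 76 to 164 and 0 to 20 coding-span calls, 4 to 29 upstream, 66 to 169 downstream, 3 to 48 and 0 to 15 upstream differences, 0 to 7 and 0 to 31 downstream differences, and 0 to 7 and 0 to 16 portions. The members called were 9 windows throughout, 6 to 8 coding spans, 0 to 1 upstream, 6 to 7 downstream and 1 to 5 upstream differences, and their median window value was -1.64 to -1.39. The pair differences ran from 0.40 to 0.78 for the hexokinases, from -2.53 to -2.04 for enolases, from -2.11 to -1.93 and from -2.16 to -1.77 for pyruvate decarboxylases and from -2.11 to -1.92 for alcohol dehydrogenases. Flank values rest on 1 to 3 probes a member.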
